A study of Mus musculus with 3 samples.

Results

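Cells of the meninges called pro-B cells are described here, chosen cell by cell on the RNA of the surrogate light chain and Dntt. The name is that of the rule, and pre-B cells that carry the surrogate light chain may be among them. A cell was kept where Vpreb1, Igll1 and Dntt together made up at least 0.15% of its unique molecular identifiers (UMIs, each a count of 1 captured RNA molecule), where at least 2 of the 3 genes had a UMI, and where Cd79a or Cd79b had at least 1 UMI. This left 76 of 7057 cells. Meninges were taken from male C57BL/6J mice aged 10 to 12 weeks. The sort that preceded the droplet step used viability, a nuclear stain and singlet gating, and no surface marker. Membranes were peeled from both the brain surface and the skull, and cells of skull marrow carried over cannot be told apart from cells resident in the membranes. Home cage (HC) mice were unstressed. Chronic social defeat (CSD) mice had 14 days of defeat and were those scored as susceptible in behavioral tests. Each library pooled 4 mice, which gave 2 HC libraries (8 mice) and 1 CSD library (4 mice), run in separate lanes of 1 chip. Library, lane and, for CSD, group cannot be told apart, and no value belongs to a single mouse. The labels name no transgene or deletion in any group. Values given as a set of 3 are in the order HC replicate 1, HC replicate 2, CSD replicate 1 throughout. The 76 cells split as 24, 15 and 37, out of 2599, 1702 and 2756 cells with a median of 2503, 2212 and 2400.5 UMIs.

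A pro-B cell is the stage of B lymphocyte development at which the immunoglobulin heavy chain gene is assembled. The recombinase made by Rag1 and Rag2 cuts the V, D and J segments, and Dntt (terminal deoxynucleotidyl transferase) adds untemplated bases at the joints. A finished heavy chain is then tested at the cell surface with the surrogate light chain, a pair of invariant proteins encoded by Vpreb1 and Igll1, together with the signalling chains Cd79a and Cd79b. These steps are best known from bone marrow, where stromal interleukin-7 sustains the cells.

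Vpreb1 (ENSMUSG00000059305, chr16:16868401-16869255) and Igll1 (ENSMUSG00000075370, chr16:16860671-16863985) are neighbours on mouse chromosome 16, and Dntt (ENSMUSG00000025014) lies on chr19:41029275-41059525 (RefSeq, GRCm38.p6, the assembly also called mm10). The 250 bases before the RefSeq start of each are shown because these 3 genes chose the cells, 5′ to 3′ on the strand of the gene. Capitals mark CAGGTG or its reverse complement CACCTG, the E-box bound by E proteins such as Tcf3 and Tcf12. The windows are chr16:16869256-16869505 (minus strand), chr16:16863986-16864235 (minus strand) and chr19:41029025-41029274 (plus strand).
Vpreb1: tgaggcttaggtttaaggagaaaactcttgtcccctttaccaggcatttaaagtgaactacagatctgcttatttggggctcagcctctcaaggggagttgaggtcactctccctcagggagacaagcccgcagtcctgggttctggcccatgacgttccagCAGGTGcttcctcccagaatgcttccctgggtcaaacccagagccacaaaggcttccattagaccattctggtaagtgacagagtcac
Igll1: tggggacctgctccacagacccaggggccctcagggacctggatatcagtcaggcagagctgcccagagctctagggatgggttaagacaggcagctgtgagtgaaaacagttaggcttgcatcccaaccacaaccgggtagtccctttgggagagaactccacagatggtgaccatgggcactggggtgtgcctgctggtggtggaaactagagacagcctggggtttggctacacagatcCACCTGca
Dntt: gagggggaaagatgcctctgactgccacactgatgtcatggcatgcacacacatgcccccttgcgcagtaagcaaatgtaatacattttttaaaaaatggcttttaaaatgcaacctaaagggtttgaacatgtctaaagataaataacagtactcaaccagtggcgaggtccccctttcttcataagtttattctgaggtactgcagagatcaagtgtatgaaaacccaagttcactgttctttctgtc
The E-box began 88 bases before the start of Vpreb1 and 8 bases before that of Igll1. These letters, on either strand, were in 17.2% of the 32851 RefSeq windows of this length. The motif of the factor Ebf1, TCCC and GGGA parted by any 2 bases, searched on both strands, was in 0.779% of the windows and in none of the 3 shown. A match is a description of the letters only.

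The genes that chose the cells are described here by their values. Normalised counts (CPM, UMIs of a gene per 1000000 UMIs summed over the cells of a class in a library) of Vpreb1 were 3132, 2871 and 3229. Igll1 was at 2500, 2613 and 2422 CPM, and Dntt at 683, 876 and 527 CPM. The SD over the 3 libraries was 185 CPM for Vpreb1 (mean 3077), 95.9 CPM for Igll1 (mean 2512) and 175 CPM for Dntt (mean 695). Dntt was lowest in CSD replicate 1 and spread the most of the 3 relative to its mean. Per cell the median was 13 UMIs of Vpreb1 (range 0 to 46), 11 of Igll1 (0 to 44) and 1.5 of Dntt (0 to 24). All 3 genes had a UMI in 51 cells, Vpreb1 and Igll1 without Dntt in 23, and Dntt with 1 of the others in 2 cells. Just inside the limit were cells at 0.157, 0.167 and 0.168% of UMIs, and just outside it cells at 0.139, 0.137 and 0.128%. A further 49 cells met the other conditions under the limit, and 15 cells were over it with 1 gene detected.

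Other B lineage cells of the same libraries served for comparison. They did not meet the rule but had both Cd79a and Cd79b, together at least 0.15% of UMIs. Those with under 1% of UMIs in Cd74, H2-Aa, H2-Ab1 and H2-Eb1, the major histocompatibility complex class II genes by which mature B cells present antigen, are called pre-B and immature B cells (384). Those at or over 1% are called mature B cells (437). Vpreb1 stood at 52.7, 70.0 and 65.3 CPM in pre-B and immature B cells and at 19.6, 31.9 and 24.9 CPM in mature B cells. Cells with at least 6% of UMIs in the neutrophil genes S100a8 and S100a9 should lack Vpreb1 and give its background. Thinned to 500 UMIs a cell, a Vpreb1 UMI was found in 66.7, 93.3 and 70.3% of pro-B cells and in 0.708, 1.31 and 1.22% of those cells. Unthinned the background was 5.42, 9.33 and 5.79%, at a median of 2197, 1751 and 2382 UMIs. Cd79a was at 1272, 1364 and 1129 CPM in pro-B cells against 1934, 1928 and 1920 CPM in pre-B and immature B cells. Cd79a and Cd79b chose the cells of both classes, with a higher limit in the second, so nothing is read from this difference.

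The label was checked against markers the rule did not use. Ebf1, the transcription factor that specifies the B lineage, had a UMI in 98.7% of the 76 cells and was at 2042, 2369 and 1902 CPM. Thinned to 500 UMIs a cell, Ebf1 was found in 58.3, 80.0 and 70.3% of pro-B cells. The background in cells rich in S100a8 and S100a9 was 1.89, 2.78 and 0.715%. Unthinned it was also in 94.0% of pre-B and immature B cells and 85.1% of mature B cells, so it does not set pro-B cells apart from these. Pax5, which commits cells to that lineage, was at 104, 100 and 95.8 CPM. At 500 UMIs a cell it was found in 4.17, 0 and 8.11% of pro-B cells. In pre-B and immature B cells it was found in 13.7, 5.84 and 6.92%, so it does not set pro-B cells apart from these. Mki67, a marker of dividing cells, was at 208, 71.8 and 144 CPM. Thinned to 500 UMIs a cell, Mki67 had a UMI in 0, 0 and 5.41% of pro-B cells, too few to read a share of dividing cells from. Unthinned, at the depth of each cell, it was in 37.5, 26.7 and 21.6%. Cells rich in S100a8 and S100a9 are not known to lack Mki67 and so give no background for it. They held it in 1.42, 0.982 and 1.57% thinned and in 8.84, 5.40 and 10.7% unthinned. Kit, Flt3 and Cd34, which mark earlier progenitors, had no UMI among 331424, which allows up to 9.05 CPM. Ikzf3, which encodes the transcription factor Aiolos, also had none, against 61.1 CPM in pre-B and immature B cells pooled over libraries (54 UMIs). It was at least 6.75-fold lower in pro-B cells with the floor set at 3 counts over the class. Genes of immunoglobulin chains were not analysed here, and 23 of the 76 cells had no Dntt UMI. Pre-B cells that carry the surrogate light chain therefore cannot be told apart from pro-B cells by this rule.

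Markers of other cell types were low except where empty droplets (barcodes with at most 100 UMIs) were rich in them. The 7 neutrophil markers summed to 30044, 28367 and 38237 CPM, led by S100a8, against 112940, 135620 and 170540 CPM in empty droplets. S100a8 and S100a9 alone made up 2.22, 1.90 and 2.56% of pro-B UMIs and 8.39, 9.47 and 11.9% of UMIs in empty droplets. Among 4 T cell markers Cd3e was at 0 in every library and the sum was 43.3, 86.1 and 75.3 CPM, led by Cd3d in HC replicate 1, by Cd3d and Lck at the same level in HC replicate 2, and by Lck in CSD replicate 1. Of 3 plasmacytoid dendritic cell markers, Ccr9 and Klk1 were at 0 and Siglech gave 17.3, 14.4 and 6.84 CPM. The 4 NK cell markers summed to 77.9, 187 and 137 CPM, led by Nkg7. The 4 myeloid progenitor markers summed to 268, 57.4 and 116 CPM, with Elane highest in HC replicate 1 and Mpo in CSD replicate 1. The 4 plasma cell markers summed to 130, 201 and 123 CPM, led by Xbp1, against 188, 268 and 236 CPM in empty droplets. The 3 endothelial markers summed to 43.3, 14.4 and 54.7 CPM, with Flt1 at 0 throughout, against 33.4, 44.6 and 16.1 CPM in empty droplets. They were thus above empty droplets in HC replicate 1 and CSD replicate 1. Of all cell barcodes 17 occurred in more than 1 library, and 1 pro-B barcode was among them.

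**Figure D1:**
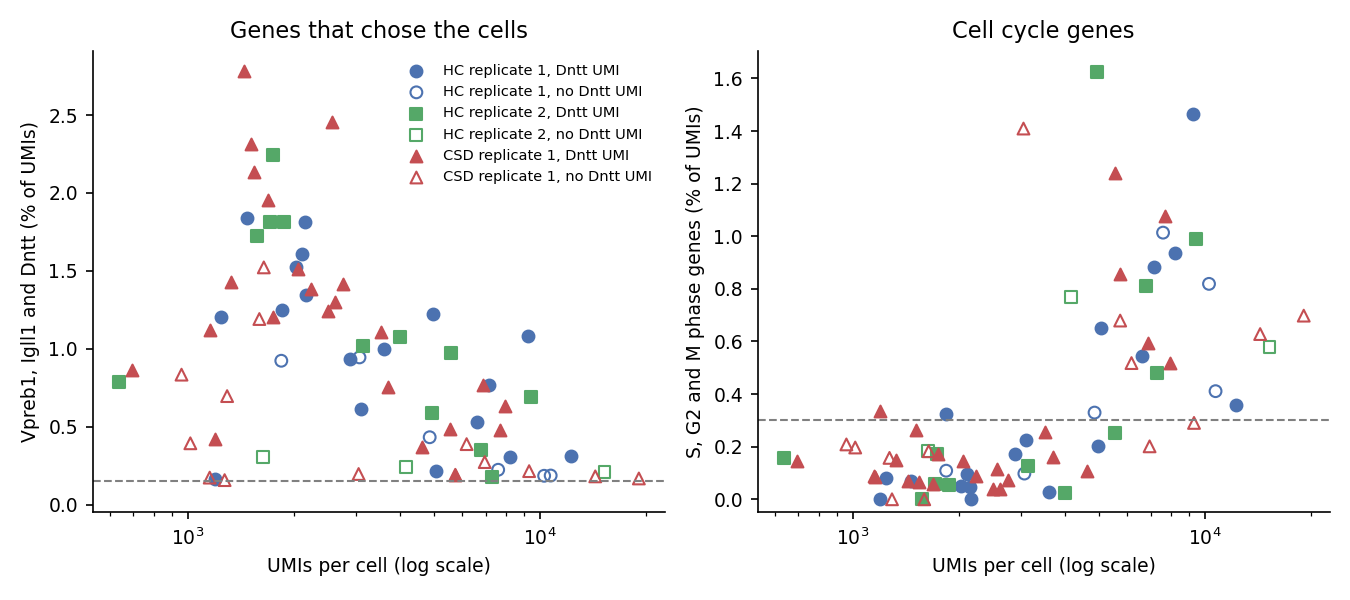
UMIs per cell (log scale) against the share of UMIs in Vpreb1, Igll1 and Dntt (left) and in the S, G2 and M phase genes (right) for the 76 pro-B cells. Circles, squares and triangles are HC replicate 1, HC replicate 2 and CSD replicate 1, filled where Dntt had a UMI, and dashed lines mark 0.15% and 0.3%. Cells with many UMIs tend to lie low on the left and high on the right.

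The cells spread over a wide range of RNA content. UMIs per cell ran from 636 to 19050, with medians of 3353, 3999 and 2499, against 1676, 1661 and 1470.5 in pre-B and immature B cells. S, G2 and M phase genes together made up at least 0.3% of UMIs, a limit chosen after seeing the data, in 28 of the 76 cells. Between 0.2 and 0.4% lay 12 cells. The 28 cells had a median of 7010.5 UMIs and 0.332% of them in Vpreb1, Igll1 and Dntt, while the other 48 had a median of 1856.5 UMIs and 1.20%. Counts of Vpreb1 per cell lay closer together, with medians of 10.5 and 14 UMIs. Dntt had no UMI in 11 of the 28 and in 12 of the 48. Because the rule is a share of UMIs, deep cells lay nearer its limit, and 20 of the 28 were under 0.5% against 8 of the 48.

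By library, 45.8, 40.0 and 29.7% of pro-B cells were at or over 0.3% in these cell cycle genes. The same share was 18.8, 25.5 and 18.5% of pre-B and immature B cells and 1.32, 2.58 and 3.82% of mature B cells. Thinned to 500 UMIs, where the limit means 2 UMIs, pro-B cells gave 41.7, 26.7 and 32.4%. Pre-B and immature B cells then gave 22.2, 27.7 and 23.1%, and mature B cells 5.96, 8.39 and 8.40%. Pro-B cells thus lay above pre-B and immature B cells in HC replicate 1 and CSD replicate 1 and not in HC replicate 2 once depth was equal.

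Pro-B cells took a larger share of the CSD library than of either HC library. They were 0.923% of cells in HC replicate 1 (24 of 2599, exact Clopper-Pearson 95% interval 0.593 to 1.37). They were 0.881% in HC replicate 2 (15 of 1702, 0.494 to 1.45) and 1.34% in CSD replicate 1 (37 of 2756, 0.947 to 1.85). The CSD share exceeded the HC mean by 0.440 percentage points, more than the SD of 0.0298 between the 2 HC libraries, but the intervals, which cover counting error only, overlapped. Among B lineage cells the shares were 8.22% (24 of 292, 5.34 to 12.0), 4.89% (15 of 307, 2.76 to 7.93) and 12.4% (37 of 298, 8.89 to 16.7). The excess was 5.86 points over an HC mean of 6.55% with an SD of 2.36, and the CSD interval overlapped that of HC replicate 1 and not that of HC replicate 2. Neutrophils weigh on the share of all cells, since 1399 CSD cells outside the B lineage had at least 6% of UMIs in S100a8 and S100a9, against 848 and 611 cells of HC replicates 1 and 2. Among cells under 3% in these genes, pro-B cells were 1.51% (24 of 1593), 1.5% (15 of 1000) and 2.73% (32 of 1173). With 1 CSD library the lowest p a permutation can give is 0.333, so no test was made. The shares are of sorted, captured cells and not of the tissue.

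**Figure D2:**
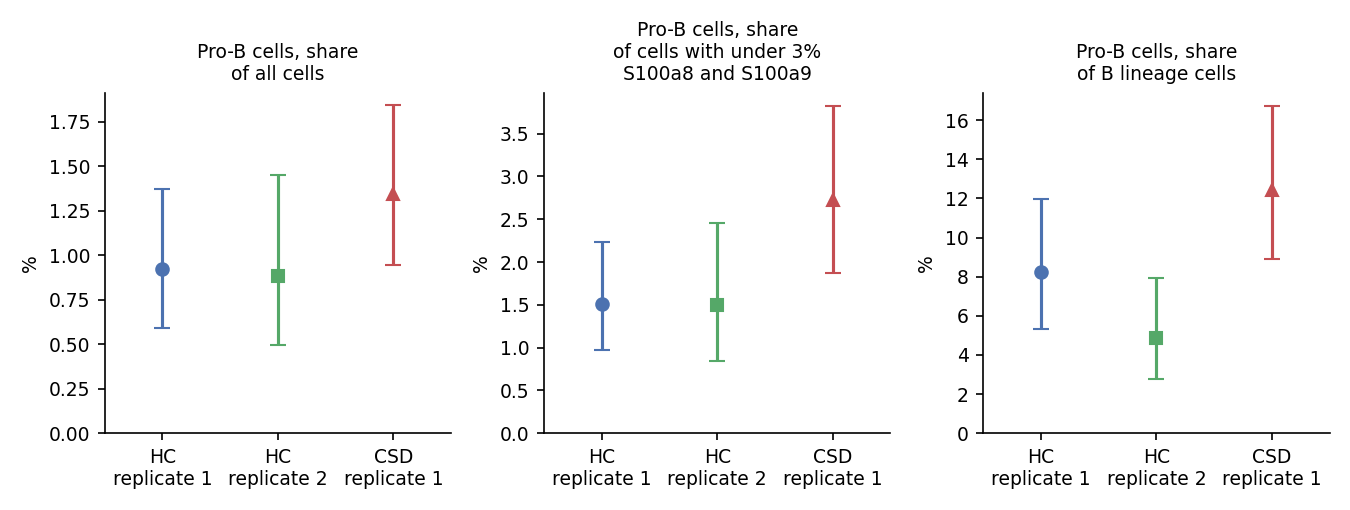
Share of pro-B cells in each library (%, axes from 0) among all cells, among cells with under 3% of UMIs in S100a8 and S100a9, and among B lineage cells. Points are single libraries and bars exact 95% intervals. CSD replicate 1 is highest in each panel, and its interval overlaps that of HC replicate 1 in all 3.

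RNA levels in pro-B cells were then compared between CSD and HC, with UMIs summed per library. Of 2907 genes with a UMI in over 15% of the cells, edgeR's quasi-likelihood test called 4 (0.138%) at an adjusted p under 0.05. The 4 were 1 higher and 3 lower in CSD, while 176 genes passed 0.05 before adjustment. DESeq2 called 0 (7 before adjustment). Hspe1 (ENSMUSG00000073676), the higher gene, encodes a mitochondrial chaperonin and overlaps Hspd1 on the other strand. It was at 424, 258 and 930 CPM, a log2 fold change of 1.45 ± 0.32 (SE, edgeR adjusted p = 0.0126). With 1 CSD library, this and the next errors and p-values hold no spread of CSD and assume that it varies like HC. The deepest cell of CSD replicate 1, with 19050 UMIs, held 45 of its 136 Hspe1 UMIs, and 102 of the 136 were in cells with no Dntt UMI. In pre-B and immature B cells Hspe1 was at 339, 311 and 284 CPM.

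The 3 lower genes are better known from other cell types. Mgp, a matrix protein of fibroblasts, was at 242, 445 and 34.2 CPM (log2 fold change -3.16 ± 0.58, edgeR adjusted p = 0.000973). Apoe, a lipid carrier of macrophages, was at 1955, 617 and 376 CPM (-1.76 ± 0.36, edgeR adjusted p = 0.00638). C1qc, a complement subunit of macrophages, was at 433, 201 and 68.4 CPM (-2.21 ± 0.50, edgeR adjusted p = 0.0195). CSD lay below both HC libraries for each, and without HC replicate 1 the Apoe change was -0.60 and that of C1qc -1.39. Empty droplets held Mgp at 1686, 1353 and 572 CPM. They held Apoe at 6718, 2188 and 2510 CPM and C1qc at 1100, 555 and 484 CPM. After subtraction of the empty-droplet profile edgeR called 3 genes, of which 1 was among the 4, and the part of free RNA in each gene's difference was otherwise not tested.

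The other members of those marker lists moved as follows. The 5 fibroblast markers summed to 381, 517 and 68.4 CPM in pro-B cells and 2476, 1922 and 747 CPM in empty droplets. Mgp led them in the HC libraries, and Col1a1 and Col1a2 were at 0 in HC replicate 2 and CSD replicate 1. The 7 macrophage markers summed to 3478, 1579 and 821 CPM, led by Apoe, with Mrc1 at 0 in HC replicate 2 and CSD replicate 1. The 7 erythroid markers summed to 1894, 2957 and 4577 CPM, led by Hbb-bs, against 5305, 14567 and 28845 CPM in empty droplets, and 0 of 5 tested were called. The 7 neutrophil markers had a median log2 fold change of 0.63 in CSD, with 0 called. In pre-B and immature B cells Mgp was at 339, 540 and 42.2 CPM and was the 1 gene of 1763 that edgeR called between CSD and HC (adjusted p = 0.0120, 65 genes before adjustment). In mature B cells Mgp was at 263, 376 and 44.9 CPM, and edgeR called 0 of 1163 genes (60 before adjustment). No gene was called at a minimum of 1000 UMIs, at a rule limit of 0.3%, at a mitochondrial limit of 5%, without the deepest cell of each library, or once genes that differ over 2-fold between empty droplets were left out.

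**Figure D3:**
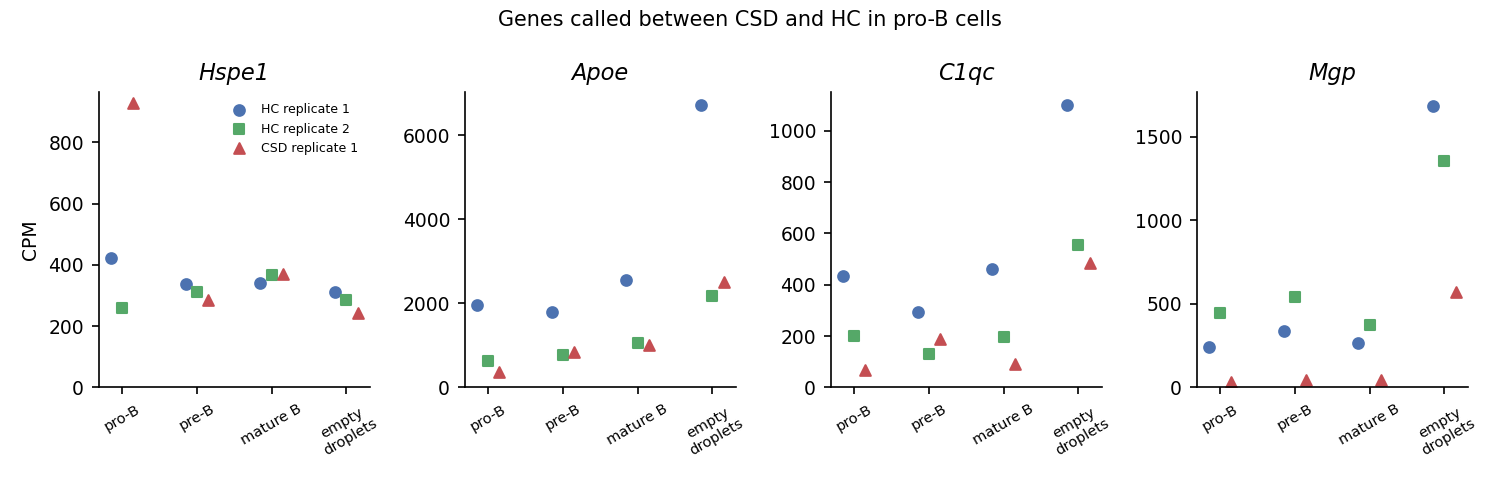
CPM of the 4 genes called between CSD and HC in pro-B cells, in pro-B, pre-B and immature B, and mature B cells and in empty droplets (axes from 0, each panel with its own scale). Each point is 1 library. Hspe1 is high in pro-B cells of CSD replicate 1 alone, and Mgp is low in CSD replicate 1 throughout.

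No member of the B cell lists was called between CSD and HC, where Vpreb1, Igll1, Dntt, Cd79a and Cd79b, whose values chose the cells, are left out of each list. Of the other surrogate light chain and pre-B cell receptor genes 6 were tested, 4 higher and 2 lower, with a median log2 fold change of 0.18 against 0.00 over all genes. The median was -0.19 over 4 V(D)J recombination genes, -0.33 over 20 B lineage transcription factors (16 lower) and -0.25 over 9 genes of interleukin-7 and growth factor signalling. It was 0.03 over 14 S phase genes, -0.29 over 17 G2 and M phase genes (14 lower), 0.06 over 8 homing and early surface markers and -0.72 over 6 mature B cell genes. Among genes that respond to stress or inflammation, the median was 0.39 over 7 interferon-stimulated genes (6 higher), 0.13 over 7 glucocorticoid-responsive genes and -0.24 over 9 immediate early genes. Empty droplets moved the same way for several of these lists. The interferon-stimulated genes summed to 3036, 2627 and 3277 CPM in pro-B cells and to 4936, 4656 and 5964 CPM in empty droplets. The mature B cell genes, class II genes included, summed to 3028, 2728 and 1642 CPM against 12125, 12245 and 5664 CPM, and the immediate early genes to 1912, 2512 and 1594 CPM against 4221, 4424 and 3059 CPM. The part of free RNA in these medians was not tested. For 82 ribosomal protein genes it was 0.22 (75 higher), again with 0 called by edgeR. Ebf1 differed by -0.14 ± 0.27 and Mki67 by -0.04 ± 0.48 on the log2 scale, and neither was called.

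Against pre-B and immature B cells of the same libraries, edgeR with the library as a block called 236 of 2954 genes higher (7.99%) and 271 lower (9.17%) in pro-B cells. DESeq2 called 54 and 74, all of them among edgeR's 507. A gene was tested where over 15% of the cells of either class had a UMI, so a gene that passed through 1 class alone was likely to be higher there. Each of the 12 largest rises passed through pro-B cells alone, and their values are given as a description. Of the 1701 genes that passed in both classes, 119 were called higher (7.0%) and 224 lower (13.2%). Arpp21, a cAMP-regulated phosphoprotein, was at 112, 172 and 82.1 CPM in pro-B cells and at 0 in pre-B and immature B cells of every library. It was at least 32.9-fold higher with the floor at 3 counts over the class. Lef1, a Wnt pathway transcription factor of early lymphocytes, was at 216, 301 and 164 CPM against 7.52, 19.6 and 34.6 CPM. Its log2 fold change was 3.34 ± 0.37.

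Other genes were among the largest rises. Adgrg1, an adhesion receptor, was at 104, 115 and 82.1 CPM against 3.76, 11.2 and 3.84 CPM. Erg, an ETS transcription factor of stem and early B cells, was at 69.2, 28.7 and 20.5 CPM against 3.76, 2.80 and 0 CPM. Its count ratio was 17.3 (95% counting interval 3.92 to 158), and DESeq2 gave it no adjusted p. Dlg2, 1700048O20Rik, Gfra2, Kcnn4, Mettl1, Phldb3 and Egfl7 were also in that set, each with fewer than 40 UMIs in pro-B cells, and Egfl7 shares its strand with the overlapping Gm20532. Vpreb2, a near copy of Vpreb1, was at 147, 187 and 185 CPM against 0, 0 and 11.5 CPM. Its transcript is 97.4% identical to that of Vpreb1 over 759 aligned bases, so reads could be split between the 2 genes and its level is uncertain.

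Abundant genes outside the naming rule, picked after their values were seen, also rose. Mif, a cytokine, was at 891, 718 and 1136 CPM against 327, 381 and 288 CPM. Npm1, a nucleolar protein, was at 1194, 1220 and 1621 CPM against 568, 730 and 630 CPM. Ncl, another nucleolar protein, was at 727, 775 and 1362 CPM against 372, 434 and 411 CPM. No pro-B library of these 3 genes fell within the range of the other class, which is a description only, since the genes were picked on their values.

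Of the 12 largest falls against pre-B and immature B cells 5 passed the filter in both classes, and 7 (Ms4a1, Spib, Cd2, Rnase6, Txndc11, Cd38, Sema4b) through pre-B and immature B cells alone. Ly6d, a surface protein that marks B lineage specification, was at 363, 172 and 356 CPM against 2351, 2326 and 2449 CPM. Its log2 fold change was -3.01 ± 0.15 (adjusted p = 5.99e-87 by edgeR and 1.83e-41 by DESeq2). Ms4a1, which encodes CD20, was at 51.9, 0 and 27.4 CPM against 444, 299 and 242 CPM. Spib, an ETS transcription factor of later B cells, was at 34.6, 14.4 and 41.0 CPM against 305, 271 and 215 CPM. In none of these did a pro-B library reach a library of the other class, and the same held for the next 3. All of them were named for lying on the same side in every library. The filter also largely set the direction of the 7 that passed through pre-B and immature B cells alone, so the separation is a description only. Fcrla, an Fc receptor-like protein, was at 51.9, 71.8 and 103 CPM against 523, 540 and 584 CPM. Cd2, an adhesion receptor, was at 8.65, 28.7 and 13.7 CPM against 135, 196 and 142 CPM. Dnajc7, a cochaperone whose gene overlaps Cnp and Nkiras2 on the other strand, was at 329, 431 and 212 CPM against 2031, 2135 and 2085 CPM. Blvrb, Rnase6, Gm43291, Txndc11, Cd38 and Sema4b completed the set. Sema4b had 1 UMI in pro-B cells, 33.0-fold lower (counting interval 5.77 to 1318). Cd38 had 3, and DESeq2 did not call it (adjusted p = 0.129).

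List counts are given for members with a UMI in over 15% of cells of both classes, to be read beside the 7.0% and 13.2% of such genes called. Of 4 such surrogate light chain and pre-B cell receptor genes Vpreb3, Syk and Lyn were lower, and Blnk was not called. Vpreb3, a chaperone-like relative of Vpreb1, was at 3010, 3316 and 3332 CPM against 3909, 3605 and 4331 CPM (-0.39 ± 0.10, edgeR adjusted p = 0.00173). Syk, the kinase downstream of the receptor, was at 51.9, 144 and 13.7 CPM against 237, 171 and 211 CPM. Of 14 B lineage transcription factors Id3 was higher and 7 were lower (Ebf1, Spi1, Bach2, Sox4, Pou2af1, Id2, Klf2). Id3 was at 311, 172 and 239 CPM against 177, 176 and 76.8 CPM, and so was not higher in HC replicate 2. The fall of Ebf1 was small (-0.36 ± 0.11, edgeR adjusted p = 0.00737). DESeq2 did not call Vpreb3, Syk or Ebf1 (adjusted p = 0.0508, 0.20 and 0.158).

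Of 3 V(D)J recombination genes over the limit in both classes (Hmgb1, Hmgb2, Xrcc6) edgeR called 0 at an adjusted p under 0.05. Rag2, which passed through pro-B cells alone, was at 25.95, 100.5 and 41.0 CPM against 15.05, 19.6 and 19.2 CPM, on 16 UMIs. Rag1, its partner, was at 43.3, 14.4 and 34.2 CPM against 79.0, 67.2 and 57.6 CPM and was below the filter. Of 6 genes of interleukin-7 and growth factor signalling 2 were lower (Pim1, Mcl1). Socs2, a feedback inhibitor, and Ccnd2, a cyclin, passed through pro-B cells alone, which largely set their direction. Il7r, the receptor chain, was at 190, 86.1 and 192 CPM against 207, 173.5 and 319 CPM (edgeR adjusted p = 0.0507) and was not called. In the S phase list 1 of 4 was higher (Dut) and in the G2 and M phase list 1 of 6 (Ube2c), against 7.0% of such genes, and nothing is read from counts this small. Of 8 immediate early genes 6 were lower (Fos, Jun, Junb, Jund, Btg2, Klf6). The surface genes Cd24a, Ly6d and Cd72 were lower. Of 4 mature B cell genes tested Ms4a1 and Fcmr passed through the other class alone, which largely set their direction. The interferon-stimulated Ifi27l2a, 1 of 5, and the glucocorticoid-responsive Tsc22d3, 1 of 3, were lower. Of 81 ribosomal protein genes 23 were higher and 1 lower. All 7 neutrophil markers and Apoe, 1 of 4 macrophage genes, were called lower in pro-B cells too. The erythroid marker Car2 was called higher, but it passed the filter through pro-B cells alone, which largely set its direction. Apoe was at 1955, 617 and 376 CPM against 1798, 778 and 833 CPM, and so was not lower in HC replicate 1. If all S100a8 and S100a9 were free RNA, free RNA would be 26.5, 20.1 and 21.4% of pro-B UMIs and 35.9, 31.6 and 22.2% of those of pre-B and immature B cells. Its part in the calls was not tested.

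**Figure D4:**
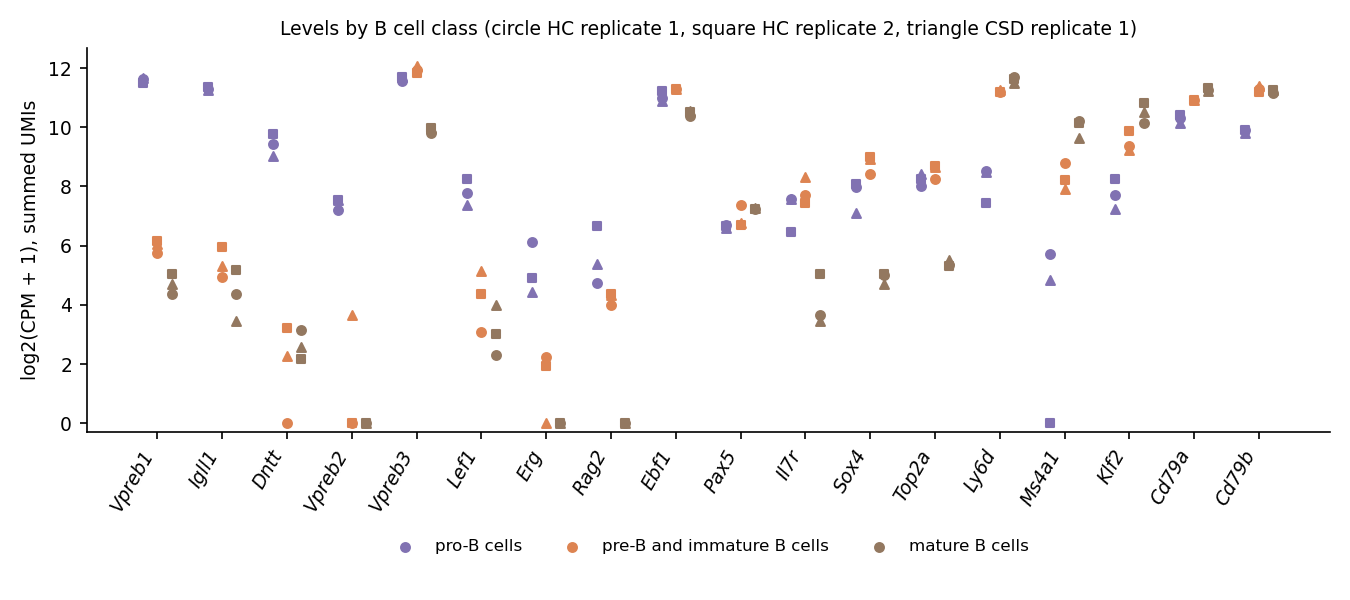
Level of 18 genes, as log2(CPM + 1) of UMIs summed per library, in pro-B (purple), pre-B and immature B (orange) and mature B cells (brown). Circles, squares and triangles are HC replicate 1, HC replicate 2 and CSD replicate 1. Vpreb1, Igll1 and Dntt (by choice of the cells), Vpreb2, Lef1 and Erg are highest in pro-B cells, and Ly6d, Ms4a1 and Klf2 are lowest there.

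Mature B cells differed from pro-B cells in more genes, with 447 of 2940 higher (15.2%) and 516 lower (17.6%) in pro-B cells by edgeR and 190 and 267 by DESeq2. Cell cycle genes passed the filter through pro-B cells alone, all 14 tested of the S phase list and 16 of 17 of the G2 and M phase list, so their direction was largely set by the filter and is given for examples only. Each of the 12 largest rises passed that way too, as did Xrcc6, Il7r, Lef1, Sox4, Myb, Socs2, Cd93 and Bst1, and the values of all of these are a description. Top2a, the topoisomerase of replicating cells, was at 259.5, 301 and 342 CPM against 39.2, 39.0 and 44.9 CPM. Hmmr, a spindle protein, had 27 UMIs in pro-B cells and 1 in mature B cells, a count ratio of 60.1 (9.90 to 2460). Rag2 and Erg had no UMI in mature B cells and were at least 11.9-fold and 9.64-fold higher in pro-B cells. Xrcc6, an end-joining factor, was at 208, 301 and 438 CPM against 15.7, 31.9 and 29.9 CPM. Hmgb1 and Hmgb2, recombination cofactors that are also abundant in dividing cells and passed in both classes, were higher.

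Il7r, which carries the interleukin-7 signal, was at 190, 86.1 and 192 CPM against 11.8, 31.9 and 9.98 CPM in mature B cells. Vpreb3 was higher by 1.31 ± 0.09 (edgeR adjusted p = 1.65e-14) and Blnk, the receptor's adaptor, was higher as well. Ccnd3, a cyclin, and Cd24a, a surface protein of early B cells, passed in both classes and were higher by edgeR but not by DESeq2 (adjusted p = 0.191 and 0.0846). Others with the largest rises were Arpp21, Gm12057, Gfra1, Capsl, Cdca3, Cdca7, Adgrg1 and Zfp428, of which Gm12057 shares its strand with the overlapping B3gnt2.

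Of the 12 largest falls against mature B cells 11 passed the filter through mature B cells alone, H2-DMb2 being the other, so they too are a description. Ms4a1 was at 51.9, 0 and 27.4 CPM against 1185, 1134 and 798 CPM (log2 fold change -5.44 ± 0.26). Bank1, an adaptor of the B cell receptor, was at 8.65, 14.4 and 13.7 CPM against 373, 376 and 384 CPM. Fcmr, the IgM Fc receptor, was at 34.6, 14.4 and 27.4 CPM against 596, 758 and 589 CPM. H2-DMb2, a class II peptide loading factor, was at 17.3, 57.4 and 41.0 CPM against 691, 787 and 683 CPM, and belongs with the class II genes by which the mature class was chosen. Cd55, which limits complement, had no UMI in pro-B cells and was at 118, 152 and 155 CPM in mature B cells, at least 15.6-fold lower. Fcer2a (encoding CD23), Cd83, Fcrl1, Scd1, Filip1l, Gm43603 and 9930111J21Rik2 were also among the largest falls, each with at most 7 UMIs in pro-B cells.

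Of 7 mature B cell genes tested 5 passed the filter through mature B cells alone, which largely set their direction. Ltb, which passed in both classes, was lower in pro-B cells. So were 7 of 8 immediate early genes and 66 of 81 ribosomal protein genes over the limit in both classes, against 427 of 1115 such genes (38.3%), while Rps27l was higher. Pax5 was lower (-1.01 ± 0.28, edgeR adjusted p = 0.00438) but not by DESeq2 (adjusted p = 0.188). Spi1, Irf8, Bcl11a, Pou2af1 and Klf2 were lower, and Ebf1 was not called (0.13 ± 0.09, edgeR adjusted p = 0.302). The signalling genes Syk, Lyn, Il2rg, Jak1 and Mcl1 and the surface genes Ly6d and Cd72 were lower. Over the limit in both classes, edgeR called 3 of 5 interferon-stimulated genes lower (Ifitm3, Ifi27l2a, Ly6e) and 3 of 4 glucocorticoid-responsive genes (Tsc22d3, Dusp1, Txnip). Ifitm3 was at 614, 660 and 609 CPM against 612, 638 and 614 CPM in mature B cells. It was thus lower on the scale of the fit and not in CPM. The same scaling applied to every gene of this comparison, so its fold changes and calls are read on that scale. The 85 ribosomal protein genes summed to 305080, 265380 and 314140 CPM against 324120, 296090 and 325850 CPM. Over the 82 tested the median log2 fold change was -0.47. Ebf1 was at 2042 and 1902 CPM in HC replicate 1 and CSD replicate 1 against 1319 and 1507 CPM. Of markers over the limit in both classes, all 7 neutrophil, 3 of 4 macrophage and 4 of 4 erythroid genes were lower too on the scale of the fit. The 7 erythroid markers summed to 1894, 2957 and 4577 CPM against 1911, 3543 and 5343 CPM. Car2, an erythroid marker with a UMI in 30.3% of pro-B and 3.89% of mature B cells, passed through pro-B cells alone and was called higher. The part of free RNA in these calls was not tested.

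Within the pro-B cells, those with a Dntt UMI (18, 12 and 23) were set against those without (6, 3 and 14). Dntt is 1 of the 3 genes of the rule, so a cell without it had to reach the limit on Vpreb1 and Igll1 alone, and no test between these groups is independent of the rule. Their values are therefore given as a description. The median UMIs with and without Dntt were 2988.5 and 6225.5 in HC replicate 1, 3572 and 4164 in HC replicate 2, and 2499 and 2346.5 in CSD replicate 1. The fit of 2902 genes served to pick genes to describe and is not read as a test. It marked 43 higher (1.48%) and 67 lower (2.31%) in cells with Dntt by edgeR and 16 in all by DESeq2. Vpreb3 was at 3779, 4092 and 4805 CPM with Dntt against 1461, 1522 and 1877 CPM without. Ebf1 was at 2304, 2981 and 2561 CPM against 1514, 951 and 1251 CPM. Rcsd1, an actin regulator, was at 311, 658 and 688 CPM against 52.2, 95.1 and 68.0 CPM. Each was higher with Dntt in all 3 libraries, with no overlap, which is a description only. For Rcsd1, named for lying on the same side in every library, this was set by the choice. Vpreb3 and Ebf1 were taken from the list members that this fit marked, so their separation also follows from the choice.

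Genes lower with Dntt included Srm, Ldha, Lyar and Hspe1. Srm, of polyamine synthesis, was at 38.8, 20.6 and 13.8 CPM against 235, 238 and 367 CPM. Ldha, of glycolysis, was at 207, 164 and 372 CPM against 626, 856 and 1006 CPM. Lyar, a nucleolar protein, was at 64.7, 123 and 138 CPM against 261, 809 and 449 CPM. Hspe1 was at 311, 123 and 468 CPM against 652, 571 and 1387 CPM. None of these 4 overlapped between the groups, which is a description only. Srm, Ldha and Lyar were named for lying on the same side in every library. Without HC replicate 1 or without CSD replicate 1 edgeR called 0 genes (201 and 139 before adjustment), and without the deepest cell of each library 5. At a rule limit of 0.3%, which left 3, 1 and 6 cells without Dntt, it called 1, and the median log2 fold change of all genes moved from 0.05 to 0.64. Ldha was then at 0.49, below that median, and Csrp2 at 1.22, above it. In the group without Dntt the deepest cell held 27.9, 72.4 and 25.9% of the UMIs, so the HC replicate 2 values without Dntt come mostly from 1 of 3 cells.

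Also among the largest differences were Selm, Plscr3, Rabgap1l, Ankrd33b, Mgst2, Cd48, Lxn, Sepp1 and Ptgr1 (higher with Dntt) and Polr2e, Csrp2, Mrpl52, Myl4, Mrpl2, Eif4g1 and Nrgn (lower). DESeq2 gave no adjusted p for 14 of these 16 genes.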

How the data were processed

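The authors deposited 1 matrix of raw UMI counts, made with Cell Ranger 2 (submitters' processing notes, build mm10), with 27998 genes and 737280 barcodes for each of 3 droplet libraries. The ending of a barcode gave its library, matched to the number in the labels. Total counts were 9891861, 8814690 and 10206236. Cells were barcodes with at least 500 UMIs, within the study's limits on genes per cell, and under 8.3% mitochondrial UMIs. The study called cells against empty droplets, so its cells differ. Doublets were kept: Scrublet's own threshold marked 1.92, 0.94 and 0.109% of cells and was not used, and its top 5% of scores, which held 3 of the 76 pro-B cells, were left out as an alternative.

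UMIs were summed per library and class and tested with edgeR 4.0.16 (quasi-likelihood, TMM, R 4.3.3, two-sided, Benjamini-Hochberg over all genes tested, adjusted p under 0.05), and with DESeq2 1.42.0 as an alternative. CSD against HC left 1 residual degree of freedom and the fits blocked by library 2. Small p-values therefore lean on the spread shared across genes, and measure the spread between pools. The 9 genes that sorted the cells were not tested between classes. They were part of the table fitted for CSD against HC, where no result rests on them. The genes named had the largest fold change past the threshold on the same side in every library, up to 10 (CSD, Dntt) or 12 (classes) in each direction, with the markers and list members. Members, classes and gene lists were chosen with earlier results of these data known. On simulated counts edgeR made false calls in all 4 comparisons, the most in CSD against HC, and DESeq2 none. In CSD against HC edgeR recovered 67% of the simulated 4-fold changes and DESeq2 18.5%. Some genes of the lists are not reported here.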

Additional observations from a re-analysis of the deposited data

How the results depend on the processing

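For CSD against HC, where 4 genes were called, 0 were called by DESeq2, with genes kept whatever their share of cells, at a minimum of 1000 UMIs, at a rule limit of 0.3%, at a mitochondrial limit of 5%, thinned to 500 UMIs, with genes that differ between empty droplets left out, and without the deepest pro-B cell of each library. With the empty-droplet profile subtracted 3 were called, 1 of them among the 4. Without the top Scrublet scores 6 were called, and 5 without cells of a shared barcode or rich in S100a8 and S100a9, each time with all 4. Against pre-B and immature B cells the 507 calls became 128 with DESeq2, 38 thinned (489 genes tested), 306 at a 0.3% rule and 272 without the deepest cells. They were 187 to 282 without 1 library (187 without CSD replicate 1, 242 without HC replicate 2, 282 without HC replicate 1). Against mature B cells the 963 calls became 457 with DESeq2 and 164 thinned (479 genes tested), and 510 to 801 without 1 library, the lowest without CSD replicate 1. For the Dntt groups the 110 calls became 16 with DESeq2, 73 with genes kept whatever their share of cells, 5 without the deepest cells, and 0 to 103 without 1 library. The groups themselves changed at a 0.3% rule (3, 1 and 6 cells without Dntt, 1 call) and when thinned (8, 8 and 9 cells with and 16, 7 and 28 without, 2 calls). At the 0.3% rule the median log2 fold change of all genes moved to 0.64, and the sign of Csrp2 (1.22) and of Ldha (0.49, below that median) changed. The excess of the CSD share of cells over the HC mean (0.440 points) was 0.407 at 1000 UMIs, 0.298 at a 0.3% rule, 0.524 without the top Scrublet scores, 1.23 among cells under 3% and 1.28 among cells under 6% of UMIs in S100a8 and S100a9, and 0.419 to 0.461 without 1 HC library. Among B lineage cells (5.86 points) it was 4.20 to 7.53 without 1 HC library. The excess stayed above 0 in every setting tried. The cause of these changes was not tested.

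Leaving out the deepest cells, the 6% limit, and leaving out 2 pro-B cells with a shared barcode or at least 6% S100a8 and S100a9 were chosen after seeing the data. No paired analysis was possible because HC and CSD share only replicate number 1, whose samples are separate pools. Depth limits the low genes: 1 UMI in the pro-B cells of CSD replicate 1 is 6.84 CPM, and of HC replicate 2 is 14.4 CPM.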
